A study of Homo sapiens with 9 samples.

Results

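The genes described here are 36 genes that build cholesterol and fatty acids or control that synthesis. They were chosen by symbol from a list of the enzymes of sterol and fatty acid synthesis and of the SREBP pathway. The choice was made with earlier results of these data known, so shares of these genes set against all genes are descriptive. The rule itself used no measured value except a minimum of 10 counts in at least 3 of the 9 libraries. All 36 listed genes passed this minimum, out of 16030 genes that passed it among the 63187 genes of the count table. RNA was sequenced from BEAS-2B cells, an immortalized line of human bronchial epithelial cells, grown in medium with 10% fetal bovine serum. Control cells were left untreated. PG/VG cells received for 24 h the condensed aerosol of the e-cigarette carrier liquid, which is propylene glycol and vegetable glycerine, at a dilution of 2% (v/v). EC cells received for the same time and at the same dilution the aerosol condensate of a commercial e-cigarette liquid. It held propylene glycol, glycerol, 18 mg/mL nicotine and a Virginia tobacco flavour, so that nicotine and flavour came together and cannot be told apart. Its ratio of propylene glycol to glycerol is not given in the sources used here and may differ from that of the carrier liquid. Each group had 3 libraries, one from each of the batches labelled 2, 3 and 4.

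Cholesterol is made from acetyl-CoA by a long chain of enzymes that first yields mevalonate and isoprenoids, then squalene, and then lanosterol, which is trimmed to cholesterol. Long-chain fatty acids are made from the same acetyl-CoA, and are then desaturated and elongated. Transcription of both sets of genes is driven by the membrane-bound factors SREBP-1 and SREBP-2, which the escort protein SCAP carries from the endoplasmic reticulum to the Golgi when sterols are scarce, and which the INSIG proteins hold back when sterols are plentiful. SREBPs act together with NF-Y, a factor that binds the CCAAT box, and serum lipids also lower their activity in cultured cells. Unsaturated fatty acids lower mainly the activity of SREBP-1.

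The promoter stretches below, taken from RefSeq promoters on GRCh38.p14, were picked from members whose promoters held a CCAAT box. None is shown for FADS2 and TM7SF2, the members with the lowest adjusted p in EC. The CCAAT box, read as CCAAT or, on the other strand, as ATTGG, and in SREBF2 also the sterol element TCACNCCAC are in capitals. INSIG1, MSMO1, SCD, IDI1 and HSD17B7 were higher in EC than in the control, whereas HMGCS1, DHCR7 and SREBF2 are members that were higher in batch 4 but did not pass the test for EC. Each stretch lies before the RefSeq start of its gene, outside the exons of coding genes, and is written 5′ to 3′ on the strand of the gene. They stand at chr7:155297678-155297742 (+ strand) for INSIG1, chr4:165327563-165327627 (+) for MSMO1, chr10:100347017-100347081 (+) for SCD, chr10:1049202-1049266 (- strand) for IDI1, chr1:162790620-162790684 (+) for HSD17B7, chr5:43313533-43313597 (-) for HMGCS1, chr11:71448453-71448517 (-) for DHCR7 and chr22:41832942-41833010 (+) for SREBF2.
INSIG1: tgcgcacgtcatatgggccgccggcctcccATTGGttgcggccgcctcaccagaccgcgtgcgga
MSMO1: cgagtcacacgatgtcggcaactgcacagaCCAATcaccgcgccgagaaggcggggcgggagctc
SCD: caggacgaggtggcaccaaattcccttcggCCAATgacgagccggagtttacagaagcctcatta
IDI1: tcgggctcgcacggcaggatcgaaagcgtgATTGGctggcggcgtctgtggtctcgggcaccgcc
HSD17B7: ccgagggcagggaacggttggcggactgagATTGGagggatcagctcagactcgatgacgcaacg
HMGCS1: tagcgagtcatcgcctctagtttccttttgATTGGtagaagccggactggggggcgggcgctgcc
DHCR7: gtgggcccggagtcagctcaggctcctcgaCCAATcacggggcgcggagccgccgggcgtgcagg
SREBF2: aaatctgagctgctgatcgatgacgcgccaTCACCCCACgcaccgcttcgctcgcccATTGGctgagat

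CCAAT in either orientation was found in the promoters of 25 of 32 members (78.1%), in a window of 250 bases before to 50 bases after the start. Promoters of 4 members, ACAT2, FASN, FDFT1 and SQLE, were not analysed here. The same letters were found in 4841 of 11426 promoters of all tested genes that had one (42.4%). Among members higher in EC, 8 of 10 held the motif (80.0%), and among those that did not pass the test in EC 17 of 22 held it (77.3%), so that its presence did not set the 2 sets apart. Of the members higher in batch 4, 19 of 21 held it (90.5%), against 6 of the other 11 (54.5%). The sterol element TCACNCCAC, also sought on both strands, was found in 1 of 32 members (3.12%), SREBF2, and in 1.40% of the promoters of tested genes. These matches describe letters in a window and were not tested for binding.

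All comparisons below were made with edgeR's quasi-likelihood test with the batch as a term, and a gene was called where the p-value adjusted over all 16030 genes was under 0.05. Levels are given as CPM, which are counts scaled to the library total after its adjustment by TMM (factors of 0.971 to 1.045), fold changes as fitted log2 fold changes (LFC) with the standard error (SE), and n is 3 libraries per group throughout. Libraries held between 16168260 and 24917838 counts in genes, and single counts of the 36 genes ranged from 92 to 14215. The first principal component of all tested genes (46.6% of the variance) set the 3 batch 4 libraries apart from the other 6, and the second (16.6%) set the control apart from both treatments. Of the epithelial markers, the keratins KRT8, KRT18 and KRT7 were high, while EPCAM was at 0.681 to 1.93 CPM and CDH1 at 0.169 to 1.59 CPM, so these defining markers were nearly absent. The mesenchymal genes VIM, CDH2 and FN1 were also high. KRT18 was lower in EC than in the control (LFC -0.46, SE 0.070, edgeR adjusted p = 0.000125), as was FN1 (LFC -0.58, SE 0.085, edgeR adjusted p = 1.13e-04). KRT8, KRT7 and CDH2 were also called lower in EC, and VIM was not called. The epithelial markers KRT19, EPCAM and CDH1 had LFC of 0.18, 0.57 and 0.36 in EC and were not called. Of the fibroblast markers, COL1A1 stood at 51.5 to 107 CPM and was higher in PG/VG (LFC 0.26, SE 0.071, edgeR adjusted p = 0.0394), while COL1A2, DCN and LUM did not pass the count minimum. The part of such shifts in the results below was not tested. In bulk samples, fewer cells with a transcript and less of it per cell cannot be told apart.

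In untreated cells the members differed widely in level. Per kilobase of exon, ACLY, which makes cytosolic acetyl-CoA from citrate, was the highest with a mean of 75.6 CPM per kb, followed by ELOVL5 with 50.9, ELOVL1 with 45.7, SCD with 43.1 and ACAT2 with 42.4. The lowest were CYP51A1 with 1.78, MVK with 1.95, HSD17B7 with 3.02 and SC5D with 3.39 CPM per kb. Other genes cover 74.1% of the exon length of CYP51A1, and the authors left out reads that overlapped several genes, so its value may be too low. The length used was that of all annotated exons of a gene together, so the order of the genes depends on the annotation.

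**Figure D1:**
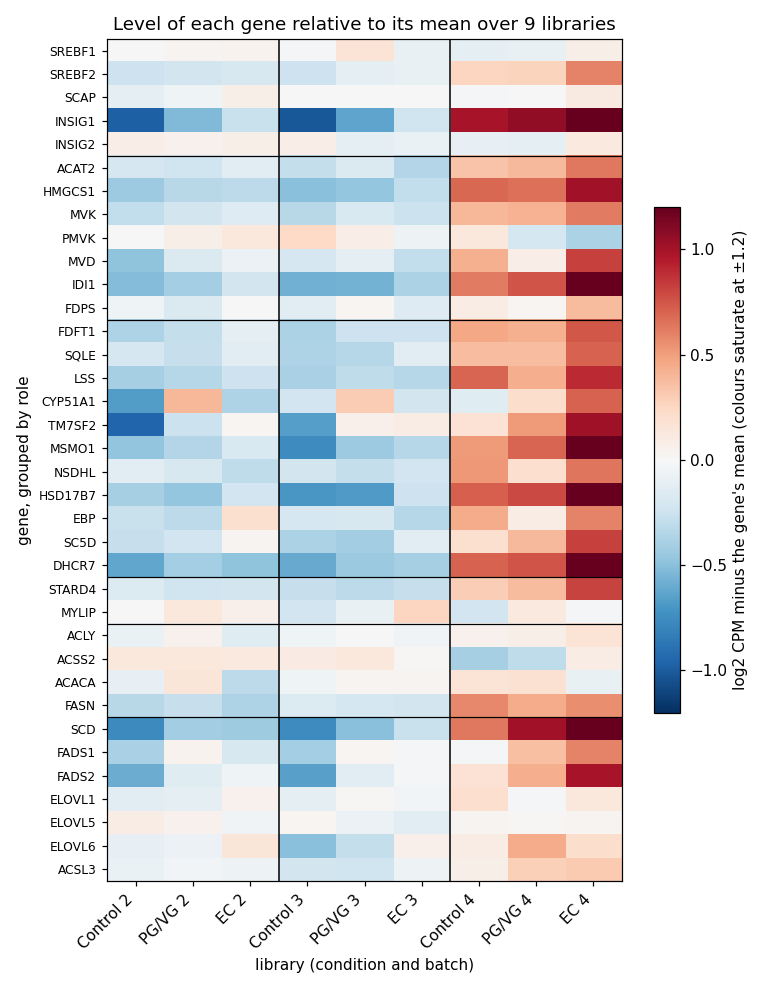
Level of each of the 36 genes (rows, grouped by role) in each library (columns, ordered by batch and then by condition), as log2 CPM minus the gene's mean over 9 libraries. Red is above and blue below that mean. The 3 libraries of batch 4 are red for most sterol genes, most deeply in EC, and INSIG1 shows the widest range.

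In EC, 12 of the 36 genes were higher than in the control and 0 were lower, with LFC from 0.22 to 0.85. The count of called members, 33.3%, stands against 13.5% of all tested genes called in this comparison and 8.07% called higher. They included 6 of the 11 genes of the sterol arm and the desaturases, whereas none of the 4 genes of fatty acid synthesis proper passed the test. The median LFC over the 36 genes was 0.18 (0.01 over all genes tested), 31 of them (86.1%) were above 0, against 51.5% of all genes, and 17 (47.2%) had an unadjusted p under 0.05, against 27.4% of all genes. Without the batch as a term, no member was called in this or in the other 2 treatment comparisons (16, 1 and 1 of all genes), and 1, 1 and 0 members had an unadjusted p under 0.05. The fold changes stayed about as large in that fit (median 0.22 in EC, INSIG1 0.65, MSMO1 0.61, SCD 0.69), and the adjusted p moved. Within the batches the median member difference of EC from the control was 0.14 in batch 2, 0.08 in batch 3 and 0.29 in batch 4. Leaving out batch 4, an alternative chosen after seeing the data, left 7 called members and a median of 0.13. The same count of 7 was left without the EC library of batch 4 alone, and the median was then 0.08.

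Among the regulators, INSIG1 was the one that passed the test. INSIG1, which retains SCAP in the endoplasmic reticulum and is itself an SREBP target, stood at 12.1, 11.8 and 47.5 CPM in the control libraries of batches 2, 3 and 4. In PG/VG it stood at 16.5, 15.4 and 50 CPM, and in EC at 19.9, 20.2 and 73.0 CPM. In every batch the EC library was the highest and the control the lowest, although the groups overlap because all batch 4 libraries lie above all others. INSIG1 rose 1.61-fold in EC (LFC 0.68, SE 0.094, edgeR adjusted p = 4.8e-05). It was also the only member called between EC and PG/VG (LFC 0.41, SE 0.091, edgeR adjusted p = 0.0296).

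The other 4 regulators moved less. SREBF2, which encodes SREBP-2, had LFC 0.18 (SE 0.073, edgeR adjusted p = 0.0987) and was above the control of its batch in all 3 batches. SCAP had LFC 0.10 (SE 0.069, edgeR adjusted p = 0.358), SREBF1, which encodes SREBP-1, 0.05 (SE 0.080, adjusted p = 0.734) and INSIG2, the second retention protein, 0.01 (SE 0.086, adjusted p = 0.949). SCAP was at 101, 109 and 107 CPM in the control and at 114, 109 and 117 CPM in EC. It was the 1 member of 36 whose 3 EC libraries all lay above the 3 control libraries, as did 9.83% of all tested genes.

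In the mevalonate arm, 1 of 7 genes passed the test. IDI1, which interconverts the 5-carbon isoprenoid units, was at 38.1, 36.8 and 84.1 CPM in the control and at 41.2, 37.0 and 92.3 CPM in PG/VG. In EC it was at 47.1, 42.1 and 134 CPM. The EC library was the highest of each batch, and the step was largest in batch 4. Its LFC in EC was 0.40 (SE 0.086, edgeR adjusted p = 0.00316), and without the EC library of batch 4 it was 0.25 with an adjusted p of 0.0838. HMGCS1, the synthase that condenses acetoacetyl-CoA to HMG-CoA, had LFC 0.22 (SE 0.081, edgeR adjusted p = 0.0804) and was above its control in all 3 batches. ACAT2, MVK, MVD and FDPS had LFC from 0.11 to 0.25, and PMVK, the kinase that follows MVK, had the lowest value of all members, -0.22 (SE 0.104, edgeR adjusted p = 0.168).

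The sterol arm held the most called genes, 6 of 11, with a median LFC of 0.38. TM7SF2, a sterol reductase of the C14 double bond, was at 9.91, 12.1 and 21.6 CPM in the control, at 16.0, 20.0 and 27.2 CPM in PG/VG and at 19.4, 20.4 and 38.8 CPM in EC. Its order was control, PG/VG, EC in each batch. TM7SF2 rose 1.80-fold in EC, the largest fitted change of the 36 genes (LFC 0.85, SE 0.106, edgeR adjusted p = 1.68e-05), and by similar amounts in the 3 batches (0.96, 0.75 and 0.84).

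MSMO1, the oxidase that removes the C4 methyl groups, was at 39.8, 32.8 and 78.6 CPM in the control, at 43.5, 41.0 and 89.6 CPM in PG/VG and at 48.8, 43.7 and 139 CPM in EC. Its LFC in EC was 0.53 (SE 0.095, edgeR adjusted p = 0.000871), with within-batch differences of 0.29, 0.41 and 0.82, and 0.33 without the EC library of batch 4 (adjusted p = 0.0273). SC5D, the desaturase of the sterol B ring, was at 30.9, 28.8 and 42.7 CPM in the control, at 31.8, 28 and 48.9 CPM in PG/VG and at 38.2, 34.1 and 66.2 CPM in EC. PG/VG therefore lay close to the control for this gene, and EC lay above both in each batch. SC5D rose in EC by LFC 0.40 (SE 0.086, edgeR adjusted p = 0.00318), and by 0.30 without the EC library of batch 4, with an adjusted p of 0.0604.

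HSD17B7, the sterol 3-ketoreductase, was at 10.9, 8.86 and 23.7 CPM in the control, at 10.4, 8.97 and 24.9 CPM in PG/VG and at 12.3, 12.1 and 33.2 CPM in EC. Its LFC in EC was 0.38 (SE 0.104, edgeR adjusted p = 0.0168). PG/VG and the control were nearly level in each batch. The call was lost without the control or EC library of batch 3 or of batch 4, where the LFC was 0.36, 0.36, 0.33 and 0.32 and the adjusted p 0.0989 (control 3), 0.0616 (EC 3), 0.118 (control 4) and 0.126 (EC 4).

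FDFT1 and SQLE, which make squalene and its epoxide, passed the test narrowly. FDFT1 was at 107, 106 and 190 CPM in the control, at 113, 116 and 186 CPM in PG/VG and at 128, 116 and 232 CPM in EC (LFC 0.23, SE 0.071, edgeR adjusted p = 0.0355). SQLE was at 81.7, 72.8 and 122 CPM in the control, at 77.8, 74.5 and 122 CPM in PG/VG and at 86.2, 85.5 and 154 CPM in EC (LFC 0.22, SE 0.072, edgeR adjusted p = 0.0485). Both were highest in EC or level with PG/VG in each batch, but the steps were small. Across 7 other settings of scaling, filter, model or samples, SQLE kept its call in 1, ComBat-Seq batch removal followed by DESeq2. Its LFC was 0.14 to 0.23 in these settings. FDFT1 kept its call in 4 of the 7, with LFC from 0.19 to 0.24. It was not called without the batch term, in DESeq2 with the batch or with batch 4 left out. FDFT1 lost its call without any 1 control library or the EC library of batch 2 or 4, with adjusted p from 0.0766 to 0.256. Its LFC stayed between 0.21 and 0.24 in 4 of those 5 fits and was 0.16 without EC of batch 4. For SQLE the call was lost in 7 of 9 fits that left out 1 library, with adjusted p from 0.0571 to 0.309, while the LFC was 0.18 to 0.26 in 6 of them and 0.14 without EC of batch 4, and the call was kept without PG/VG of batch 3 and without EC of batch 2.

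The remaining 5 genes of the sterol arm did not pass. DHCR7, the last reductase of one branch, was at 38.4, 38.8 and 96.5 CPM in the control and at 42.3, 44.8 and 167 CPM in EC, with a far larger step in batch 4 than in the others. Its LFC was 0.41 (SE 0.141, edgeR adjusted p = 0.0895). CYP51A1, the lanosterol demethylase, had LFC 0.42 with a wide error (SE 0.218, edgeR adjusted p = 0.25), and its counts are uncertain, since other genes cover 74.1% of its exons. LSS, the cyclase that yields lanosterol, had LFC 0.13, EBP, the sterol isomerase, 0.16 and NSDHL, the C4 decarboxylase, -0.02. STARD4, a sterol carrier, and MYLIP, a ubiquitin ligase under LXR control, had LFC 0.17 and 0.26 (edgeR adjusted p = 0.248 and 0.173).

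**Figure D2:**
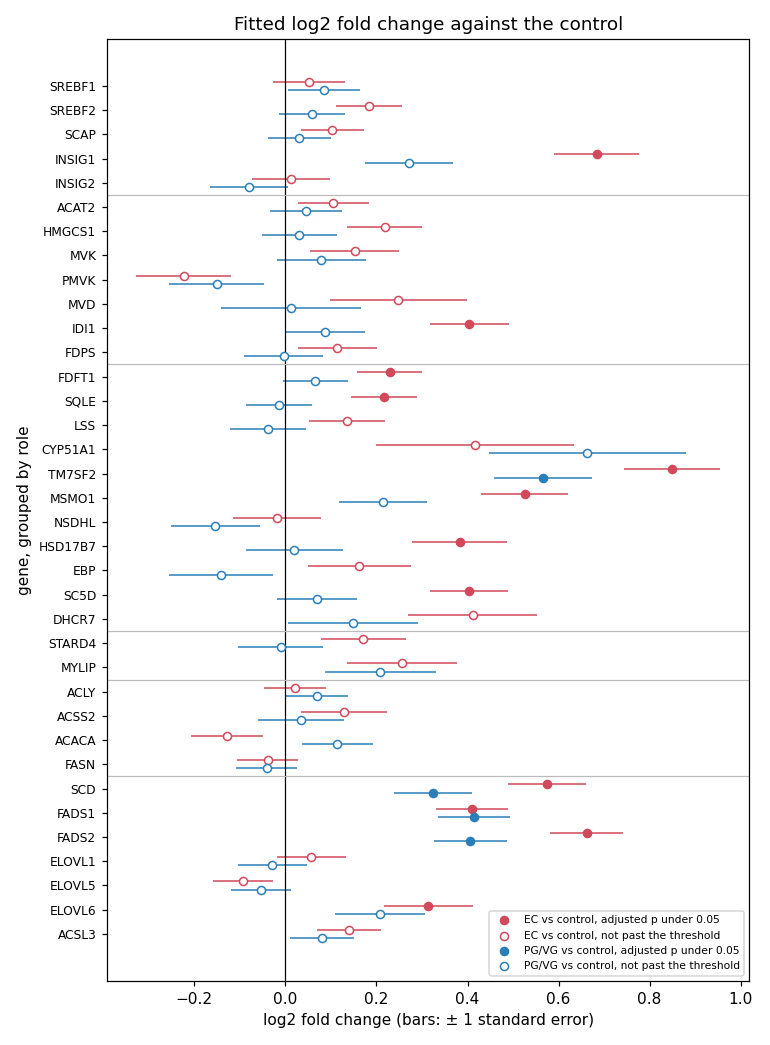
Fitted LFC of each gene in EC (red) and PG/VG (blue) against the control, with 1 SE on either side; rows are grouped by role and filled points have an adjusted p under 0.05. TM7SF2, INSIG1, FADS2, SCD and MSMO1 lie above 0.5 in EC, and the 4 genes from ACLY to FASN lie between -0.13 and 0.13.

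The 4 enzymes that build the fatty acid chain did not pass the test in EC. ACLY had LFC 0.02 (SE 0.068), ACSS2, which makes acetyl-CoA from acetate, 0.13 (SE 0.094), ACACA, the carboxylase that makes malonyl-CoA, -0.13 (SE 0.079) and FASN, the synthase, -0.04 (SE 0.067), with edgeR adjusted p from 0.317 to 0.882. FASN was at 260, 291 and 489 CPM in the control and at 253, 281 and 480 CPM in EC, slightly lower in each batch.

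Of the 7 genes that desaturate, elongate or activate fatty acids, 4 were called in EC. SCD, the stearoyl-CoA desaturase that makes oleate, was at 146, 147 and 385 CPM in the control, at 186, 175 and 498 CPM in PG/VG and at 185, 206 and 705 CPM in EC. It was above the control in both treatments in every batch. SCD rose 1.49-fold in EC (LFC 0.57, SE 0.086, edgeR adjusted p = 0.000152).

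FADS2, the delta-6 desaturase of polyunsaturated fatty acids, was at 131, 126 and 223 CPM in the control, at 178, 180 and 267 CPM in PG/VG and at 190, 194 and 392 CPM in EC. Its LFC in EC was 0.66 (SE 0.080, edgeR adjusted p = 1.07e-05), the lowest adjusted p of the members. FADS1, the delta-5 desaturase next to it on chromosome 11, was at 171, 169 and 221 CPM in the control, at 231, 227 and 287 CPM in PG/VG and at 196, 222 and 339 CPM in EC. It rose in both treatments (LFC 0.41 in each, SE 0.079, edgeR adjusted p = 0.00132 in EC). The genes lie on opposite strands, and exons of other genes overlap 5.6% of the exon length of FADS1 and 5.1% of that of FADS2.

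ELOVL6, the elongase of palmitate, was at 36.5, 27.6 and 41.5 CPM in the control, at 37.2, 32.1 and 53.3 CPM in PG/VG and at 43.3, 40.9 and 45.3 CPM in EC. Here PG/VG was the highest library of batch 4, unlike for the other called members. ELOVL6 rose in EC by LFC 0.31 (SE 0.098, edgeR adjusted p = 0.0368), and lost the call without the control library of batch 3 (LFC 0.24, adjusted p = 0.238) or batch 4 (LFC 0.32, adjusted p = 0.0997) or the EC library of batch 2 (LFC 0.29, adjusted p = 0.106) or batch 3 (LFC 0.19, adjusted p = 0.261). In DESeq2 with the batch, ELOVL6 was not called either (LFC 0.30, DESeq2 adjusted p = 0.066). ELOVL1 and ELOVL5, elongases of very long and polyunsaturated chains, had LFC 0.06 and -0.09, and ACSL3, which activates fatty acids for lipid droplets, 0.14 (edgeR adjusted p = 0.208).

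**Figure D3:**
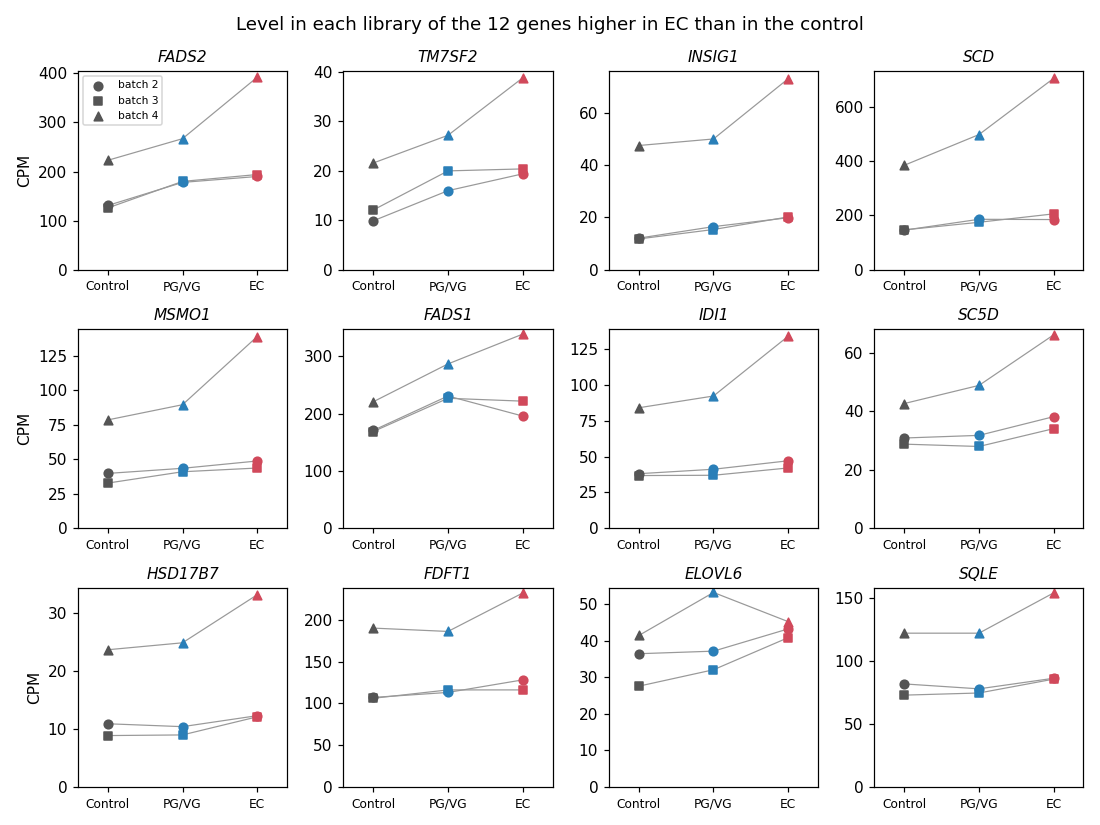
CPM (y axes start at 0) of the 12 genes called higher in EC, in order of their p-value; each point is 1 library, the marker gives the batch and grey lines join the 3 libraries of a batch. Batch 4 lies above the other batches in most panels, and EC is above the control in every batch in all 12 panels.

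The carrier alone raised 4 of the 36 genes and lowered none, and all 4 were also called in EC, although both comparisons share the control libraries. This is 11.1% of the members, against 4.54% of all tested genes called and 2.63% called higher in PG/VG. TM7SF2 rose by LFC 0.57 (SE 0.108, edgeR adjusted p = 0.00351), FADS1 by 0.41 (SE 0.079, adjusted p = 0.00351), FADS2 by 0.41 (SE 0.080, adjusted p = 0.00437) and SCD by 0.32 (SE 0.086, adjusted p = 0.0338). The 3 PG/VG libraries of FADS1 lay above its 3 control libraries, as they did for CYP51A1 and for 7.79% of all tested genes. INSIG1 had LFC 0.27 in PG/VG (SE 0.096, edgeR adjusted p = 0.109), with within-batch differences of 0.44, 0.38 and 0.07.

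The regulators other than INSIG1 and the genes of the mevalonate arm had LFC from -0.15 to 0.09 in PG/VG, and none passed the test. The median over the 36 genes was 0.06 (0.01 over all genes), 25 were above 0 (69.4%, against 52.9% of all genes), and 8 had an unadjusted p under 0.05, a share of 22.2% that is near the 20.1% of all genes. Without the PG/VG library of batch 2, 1 member (TM7SF2) was left, FADS1 and FADS2 then having LFC of 0.35 and 0.36 with adjusted p of 0.0582 and 0.0584. Without the control library of batch 4 the median was 0.025, and without PG/VG of batch 3 it was 0.023. SCD lost its call without any 1 PG/VG library or the control library of batch 3 or 4, with LFC from 0.23 to 0.37 and adjusted p from 0.0633 to 0.247, and without batch 4 as a whole (LFC 0.28, adjusted p = 0.0847).

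Between EC and PG/VG, which differ in nicotine and flavour and perhaps in the carrier ratio, INSIG1 was the 1 member called (0.855% of all genes were called, 0.555% higher). The median over the members was 0.12 (0.00 over all genes), 29 of 36 (80.6%) were above 0, against 50.7% of all genes, and 14 (38.9%) had an unadjusted p under 0.05, against 12.9% of all genes. Of these 14 genes, 8 belonged to the sterol arm. SC5D (LFC 0.33, SE 0.084, edgeR adjusted p = 0.0618), IDI1 (LFC 0.32, SE 0.085, edgeR adjusted p = 0.0806) and HSD17B7 (LFC 0.36, SE 0.101, edgeR adjusted p = 0.0949) came next to the threshold. FADS1 did not differ beyond its error (LFC 0.00, SE 0.078). ACACA had LFC -0.24 (SE 0.079, edgeR adjusted p = 0.162), and its 3 EC libraries, at 117, 149 and 137 CPM, lay at or below its PG/VG libraries, at 161, 149 and 165 CPM.

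The median member difference of EC from PG/VG was 0.34 in batch 4, against 0.06 in batch 2 and 0.01 in batch 3. A test of the difference between batch 4 and the other batches, added after seeing the data, called 0 members and 0 of all genes with edgeR, with 15 members (41.7%) and 5.71% of all genes at an unadjusted p under 0.05, and DHCR7 had the lowest adjusted p of the members, 0.328. With batch 4 left out no member was called and the median was 0.03. INSIG1 then had LFC 0.33 (edgeR adjusted p = 0.221). Its call was also lost without the PG/VG library of batch 2 (adjusted p = 0.0576) or batch 4 (adjusted p = 0.237) and without the EC library of batch 2 (adjusted p = 0.0528), batch 3 (adjusted p = 0.0665) or batch 4 (adjusted p = 0.133), with LFC from 0.31 to 0.49.

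**Figure D4:**
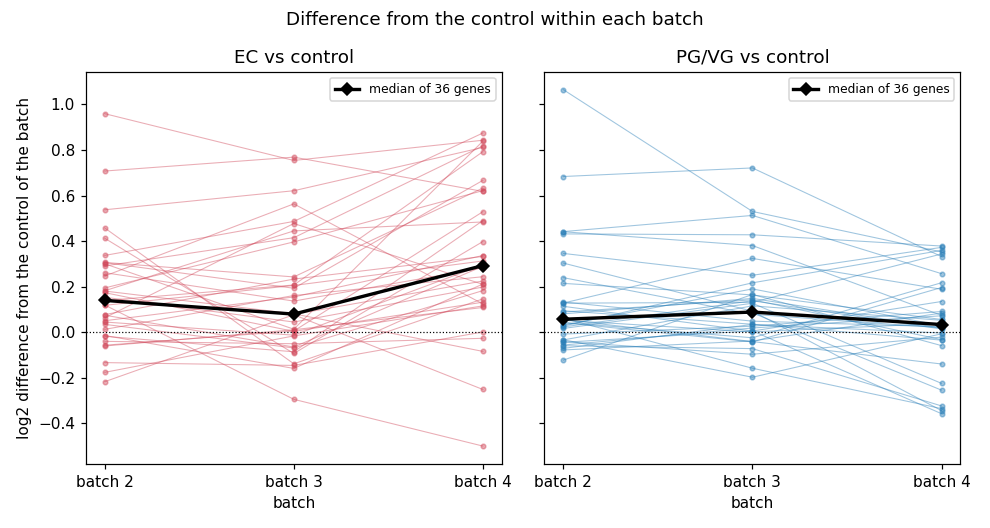
Log2 difference of each of the 36 genes from the control library of the same batch (thin lines), for EC and for PG/VG, with the median of the genes (black diamonds). The EC median is 0.14, 0.08 and 0.29 in batches 2, 3 and 4, and that of PG/VG is 0.06, 0.09 and 0.03.

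The differences between batches were larger than those between treatments. Comparing the batches over the 3 conditions, 26 of the 36 genes differed (34.3% of all tested genes did), 25 of them higher and 1, ACSS2, lower in batch 4. The test and its adjusted p are for any difference between the batches. Higher or lower in batch 4 gives the sign of its difference from the mean of batches 2 and 3, which was not tested by itself. The median member was higher in batch 4 than in the mean of batches 2 and 3 by 0.68 on the log2 scale, while the median of all tested genes was -0.00. All 3 batch 4 libraries lay above the other 6 in 22 of the 36 genes, and in 14.5% of all tested genes. What distinguished batch 4 in the laboratory is not given in the sources used here.

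Each role held genes that were higher in batch 4, and in fatty acid synthesis proper this was FASN alone. In the sterol arm 10 of 11 genes were higher, CYP51A1 being the one that did not pass, and in the mevalonate arm 6 of 7, PMVK being the other. INSIG1 differed most, with means over the conditions of 16.2, 15.8 and 56.8 CPM in batches 2, 3 and 4, a log2 difference of 1.83 (edgeR adjusted p = 8.77e-14). SCD followed with 1.57 (172, 176 and 529 CPM), DHCR7 with 1.5 (41.8, 42.3 and 121 CPM), HSD17B7 with 1.36, IDI1 with 1.34, MSMO1 with 1.28 and HMGCS1 with 1.18. Of the regulators, SREBF2 was higher by 0.56 (edgeR adjusted p = 6.22e-07), while SREBF1, SCAP and INSIG2 had differences from -0.07 to 0.04. FASN, at 261, 285 and 471 CPM, was higher by 0.79 (edgeR adjusted p = 5.97e-10), although it did not pass the test in EC.

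**Figure D5:**
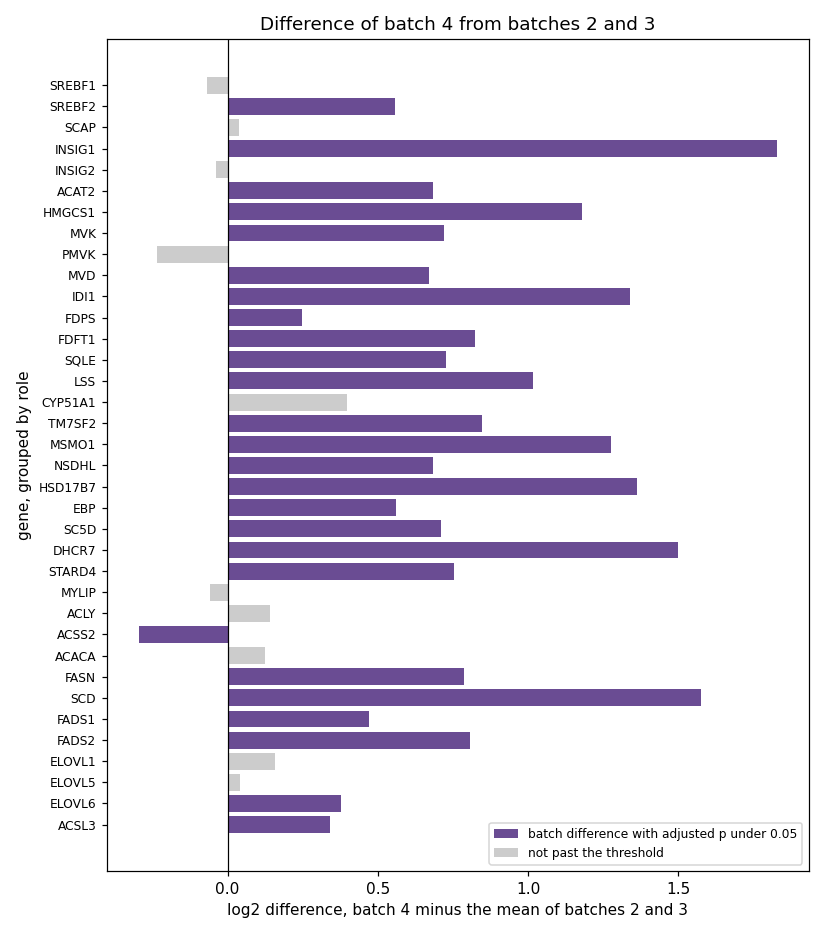
Fitted log2 difference of each gene in batch 4 from the mean of batches 2 and 3, over the 3 conditions; purple bars have an adjusted p under 0.05 for any difference between batches. Bars reach 1.83 for INSIG1, and ACSS2 is the purple bar below 0, at -0.30.

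The 12 genes called in EC were all among the 25 that differed between batches and were higher in batch 4, and of the other 24 members 13 were (54.2%). Of all 16030 genes tested, 2756 differed between batches and were higher in batch 4. Both call lists come from the same 9 libraries and are not independent, and their overlap over all genes was not counted. The summed level of the 36 genes shows the difference by treatment and that by batch. It was 2969, 2953 and 4305 CPM in the control libraries of batches 2, 3 and 4, 3228, 3187 and 4511 CPM in PG/VG and 3181, 3228 and 5514 CPM in EC. EC was therefore 1.07, 1.09 and 1.28 times the control, and PG/VG 1.09, 1.08 and 1.05 times. In batches 2 and 3 the sums of EC and PG/VG were close (ratios 0.985 and 1.01), and in batch 4 EC was 1.22 times PG/VG.

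In 23 of the 36 genes the EC difference from the control was largest in size in batch 4 and upward there, and in 2, PMVK and ACACA, it was largest in batch 4 and downward. The same count was not made over all tested genes, so whether this is particular to the members cannot be told. A test of how the EC effect in batch 4 differed, added after seeing the data, called 0 members with edgeR (0.0125% of all genes were called), with 9 members (25.0%) and 7.55% of all genes at an unadjusted p under 0.05. DHCR7, STARD4, ACSS2, SCD and MSMO1 had the lowest p of these, with EC effects larger in batch 4 by 0.62 (SE 0.141, adjusted p = 0.275), 0.56 (SE 0.140, adjusted p = 0.31), 0.54 (SE 0.144, adjusted p = 0.353), 0.46 (SE 0.136, adjusted p = 0.445) and 0.47 (SE 0.147, adjusted p = 0.489). They were singled out after their values were seen. For TM7SF2 and INSIG1 the differences were -0.02 (SE 0.189) and -0.12 (SE 0.165).

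Genes of neighbouring pathways were read from 4 further lists. A list of 13 genes held factors around SREBP, the sterol-sensing nuclear receptor LXR itself and the carbohydrate-responsive factors MLXIPL and MLX. Of these 13 genes, 2 were called higher in EC (15.4%, near the 13.5% of all genes called). They were NFYA, a subunit of the CCAAT-binding factor (LFC 0.26, SE 0.080, edgeR adjusted p = 0.0357), and MLXIPL, a carbohydrate-responsive factor (LFC 1.32, SE 0.388, edgeR adjusted p = 0.0264), which was low, at 0.318 to 0.732 CPM in the control and 0.893 to 1.62 CPM in EC. Neither NFYB nor NFYC, the other subunits, named here after their values were seen, passed the test (LFC -0.12 and -0.02).

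Of 15 genes of sterol side branches and efflux, 2 were higher and 1 lower in EC (20.0% called). FAXDC2, a relative of the sterol C4 oxidase, was at 6.23, 7 and 16.0 CPM in the control and at 11.2, 11.8 and 22.7 CPM in EC (LFC 0.68, SE 0.123, edgeR adjusted p = 0.000677). ERG28, a scaffold of the sterol demethylating enzymes, rose by 0.35 (SE 0.085, edgeR adjusted p = 0.00745). LBR, the lamin receptor that carries the same C14 reductase activity as TM7SF2, was lower in EC (LFC -0.33, SE 0.069, edgeR adjusted p = 0.00292) and in PG/VG (LFC -0.27, SE 0.069, edgeR adjusted p = 0.0263). Its levels were 172, 161 and 162 CPM in the control and 138, 132 and 125 CPM in EC, so the groups did not overlap, and the 2 reductases moved in opposite directions. ABCA1, the cholesterol exporter under LXR control, had LFC 0.07 in EC (SE 0.146, edgeR adjusted p = 0.814).

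Of 19 other acyl chain enzymes, 3 were higher and 2 lower in EC (26.3% called). ACSL5, an acyl-CoA synthetase, rose most (LFC 0.84, SE 0.137, edgeR adjusted p = 0.000256), from 7.81, 6.63 and 7.26 CPM in the control to 13.8, 15.4 and 9.92 CPM in EC, with no overlap between the groups. ACSL4, the synthetase that favours arachidonate, was lower (LFC -0.32, SE 0.069, edgeR adjusted p = 0.0033). ACACB, the mitochondrial acetyl-CoA carboxylase, was higher by 0.42 (SE 0.111, edgeR adjusted p = 0.0139) and MCAT, of mitochondrial fatty acid synthesis, lower (LFC -0.31, SE 0.089, edgeR adjusted p = 0.023). ELOVL4, named after its value was seen, was the fifth, with LFC 0.39 (SE 0.123, edgeR adjusted p = 0.0383). Of 12 tested genes of triglyceride synthesis and the lipid droplet coat, 0 were called with edgeR and 2 had an unadjusted p under 0.05. PLIN2, a coat protein of lipid droplets, was at 108, 109 and 106 CPM in the control and at 105, 96.2 and 97.8 CPM in EC (LFC -0.11, SE 0.072, edgeR adjusted p = 0.333).

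Some counts are uncertain, because the authors' counting left out reads that overlapped several genes or mapped to several places. On the same strand, other genes cover 68.2% of the exon length of CYP51A1 and 36.4% of EBP. On the opposite strand alone, other genes cover 37.7% of HMGCS1, 22.2% of ACAT2, 18.6% of FDPS and 15.0% of IDI1, and whether reads there were left out depends on the strand setting, which is not given in the sources used here. FDPS has 8 named pseudogenes, IDI1 and CYP51A1 have 3 each, HSD17B7 has 2, and SCD and ACSL3 have 1 each.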

How the data were processed

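The deposited table holds raw read counts per gene. As the study's methods and the labels state, the authors trimmed paired reads of poly-A libraries with fastp, aligned them to GRCh38.p12 with STAR and counted exons with featureCounts of Subread 2.0.4 on Ensembl gene models, ignoring reads that mapped to several places or overlapped several genes; the strand setting is not given in the sources used here. Batch removal by the authors came after these counts and is not in them.

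Symbols and exon overlaps came from GENCODE release 44 (62666 of 63187 gene identifiers matched) and promoters from RefSeq. A gene was kept where 3 or more of the 9 libraries had 10 counts or more (16030 genes), scaled by TMM, and tested in all 9 libraries together with edgeR 4.0.16 (glmQLFit and glmQLFTest in R 4.3.3, robust), with group and batch as terms and 4 residual degrees of freedom. The p-values were adjusted by Benjamini-Hochberg over all genes tested, and the threshold was 0.05. SE is the LFC divided by the square root of F. The batch difference is an F test of the batch terms, with the size given as batch 4 minus the mean of batches 2 and 3. Log2 CPM used a prior count of 2 for within-batch differences. The replicate number is the labelled batch. Deviations from the group means correlated at 0.334 to 0.707 in 9 pairs with the same number and at -0.539 to 0.426 in 18 other pairs. This set batch 4 apart, since its pairs with other batches were all negative. Pairs between batches 2 and 3 had 0.28 to 0.426, and pairs within batch 2 or 3 had 0.334 to 0.399. The correlations therefore do not show that libraries pair by number within batches 2 and 3. The batch was kept as a block because the authors removed it before testing and each batch held 1 library of each group. No 2 libraries of a group agreed within sampling noise (chi-square per gene 3.66 to 52.8).

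The members, the further gene lists and the tests were chosen with earlier results of these data known. By the rule for named genes, all 36 members are accounted for by role, the called ones with the value in every library, and of each further list at most 4 called genes with the lowest adjusted p in EC are named, beside ABCA1 and PLIN2; ELOVL4, NFYB and NFYC were named outside the rule, after their values were seen. Alternatives were RLE scaling, no count filter, no batch term, DESeq2 1.42.0 with the batch, ComBat-Seq (sva 3.50.0) followed by DESeq2, each pair of groups alone, each library left out and batch 4 left out. On simulated counts of the 16030 genes for EC against the control, with 200 genes changed by a log2 value of 1, the edgeR fit with the batch recovered 77.5% of them with 17 false calls, and the fit without it 51% with 0 false calls. ComBat-Seq followed by DESeq2 recovered 82% there, with 40.4% of its calls false, against 9.88% for the edgeR fit with the batch. These values are for a log2 value of 1 only. The members called in EC had smaller LFC, from 0.22 to 0.85, and recovery at those sizes was not tested.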

Additional observations from a re-analysis of the deposited data

How the results depend on the processing

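Counts of called members are given in the order EC against the control, PG/VG against the control and EC against PG/VG (12, 4 and 1 as reported, of 2157, 727 and 137 called genes). Without the replicate block they were 0, 0 and 0, of 16, 1 and 1 genes. RLE scaling gave 11, 4 and 1, DESeq2 with the batch 9, 5 and 1, and no filter beyond 1 count 13, 5 and 4 (of 2061, 936 and 309 genes). ComBat-Seq followed by DESeq2 gave 15, 6 and 9, of which 1 of the last was lower (of 3099, 1682 and 621 genes). Each pair of groups alone gave 12, 5 and 4 (of 2102, 1179 and 318), and batch 4 left out, chosen after seeing the data, gave 7, 4 and 0 (of 1216, 324 and 80). Leaving out 1 library gave 7 to 13, 1 to 5 and 0 to 3, including 1 member called lower in EC without control 2 or EC 2 and 1 called lower than in PG/VG without EC 3, with the lowest of the first without EC of batch 4, of the second without PG/VG of batch 2, and of the third without PG/VG of batch 2 or 4 or EC of batch 4. The median member LFC of PG/VG ranged from 0.023 to 0.086 in those fits, that of EC from 0.077 (without EC of batch 4) to 0.219 and that of EC against PG/VG from 0.045 to 0.177, and no median changed sign. The number of members that differed between batches was 25 to 26 with 1 library left out and 27 without the filter. In the 250 bases before the start alone, CCAAT was found in 24 of 32 member promoters (75.0%) and in 40.8% of those of tested genes. The causes of these shifts were not tested. With 3 libraries per group, the smallest LFC of a called member was 0.22 (SQLE in EC), and no smaller difference of a member was called.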
